A study of Mus musculus with 123 samples.

Results

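Opioid receptors and the precursors of opioid peptides are described here as 6 of the 24134 genes in the expression tables. The members are the genes with the symbols Oprm1, Oprd1, Oprk1, Oprl1, Penk and Pdyn. Oprm1, Oprd1 and Oprk1 encode the mu, delta and kappa opioid receptors, Oprl1 encodes the nociceptin receptor, Penk encodes proenkephalin and Pdyn encodes prodynorphin.

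Opioid receptors couple to inhibitory G proteins. Their activation lowers cyclic AMP, closes calcium channels at nerve terminals, opens inwardly rectifying potassium channels and so dampens release of transmitter. In dorsal root ganglia (DRG) the receptors sit on sensory neurons, many of them nociceptors, and are a site at which opioid drugs and locally released enkephalins and dynorphins reduce pain.

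The study sequenced single DRG neurons of 2-month-old mice after sciatic nerve transection (SNT) of the right side, with the uninjured opposite side as control. Neurons were picked by hand and amplified by Smart-seq2, in which reads carry no molecular identifier. Day 3 cells came from F1 offspring of CAST/Eij males and C57BL/6 females, and day 7 cells came from C57BL/6 mice of both sexes. No genotype other than the strain is given. Day 3 cells and pooled libraries were read as single ends of 50 bases, and day 7 cells as paired ends of 75 bases, so day, strain and read type cannot be told apart. By the study's methods the F1 mice were female, so sex is also tied to day. The protocol label of the C57BL/6 cells names both 3 and 7 days, and these cells were placed at day 7 by their titles. No label names the animal of a cell. The labels give the sex of day 7 cells, and cells of different sex come from different mice, so each side of day 7 holds more than 1 animal. How many animals a side holds is not known, the cells of a side are summarised together, and cells are not replicates of the injury.

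Of 117 single cells, 106 were kept in the deposited table without outliers. They comprised 18 control side and 41 SNT side cells at day 3, and 14 control side and 33 SNT side cells at day 7. In addition, dissociated neurons of each side of the F1 mice were lysed together and split into 3 pooled libraries per side, collected at day 3. How many neurons went into a lysate is stated differently in different descriptions of the study and is not given here. The 3 libraries of a side are parts of 1 lysate, so every p below covers technical spread alone and not spread between animals. The headers of the 6 pooled columns contradict the identifiers written beneath them on which side was injured, and the source label calls all 6 intact. The headers were used. Under these headers the injury-induced genes Atf3, Sprr1a and Gal were higher on the SNT side, as in the single cells: mean Atf3 was 13.5 CPM in the control libraries and 1466 CPM in the SNT libraries. CPM is the count of a gene over the total of its library, scaled to 1000000, and is the unit of every level below. With the identifiers instead, every pooled difference would change sign.

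Total counts of the kept cells had a minimum, median and maximum of 277390, 862619 and 1368842 on the control side at day 3 and of 611647, 1323932 and 1849130 on the SNT side. At day 7 they were 510014, 738947 and 1018545 on the control side and 261351, 575179 and 965292 on the SNT side. The pooled libraries held 727203, 839126 and 563437 counts on the control side and 1672790, 1148845 and 2003807 on the SNT side. A cell was counted as carrying a gene at 10 CPM or more. Shares of cells have exact Clopper-Pearson 95% intervals. Where 0 cells carried a gene, the upper limit given is instead 3 cells over the number of cells. Intervals and floors cover counting error only. All 106 kept cells carried the neuronal genes Tubb3, Snap25, Uchl1 and Prph. Rbfox3, the fifth neuronal marker, was carried by 18 of 18 control and 37 of 41 SNT cells at day 3, with means of 234 and 90.2 CPM, and by 14 of 14 and 32 of 33 cells at day 7.

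The makeup of the picked cells differed between sides. Pvalb, a marker of proprioceptors, was carried by 1 of 18 control and 9 of 41 SNT cells at day 3, and by 1 of 14 control and 17 of 33 SNT cells at day 7. Ntrk3, the neurotrophin receptor of large sensory neurons, was carried by 7 of 18 and 18 of 41 cells at day 3 and by 6 of 14 and 24 of 33 cells at day 7. Calca, the peptide gene of many nociceptors, was carried by 15 of 18 and 32 of 41 cells at day 3 and by 8 of 14 and 13 of 33 cells at day 7. Kit and Gfra3, also markers of peptidergic nociceptors, went the other way at day 3, with 8 of 18 and 32 of 41 cells for Kit and 4 of 18 and 25 of 41 cells for Gfra3. At day 7 Kit was carried by 10 of 14 and 16 of 33 cells and Gfra3 by 0 of 14 and 4 of 33. Mean sums of 7 nonpeptidergic markers were 2973 and 1547 CPM at day 3, and 549 and 204 CPM at day 7. Among these, mean Mrgprd was 638 and 142 CPM and mean P2rx3 803 and 891 CPM at day 3. Mean sums of 3 markers of low-threshold C fibres were 636 and 35.2 CPM at day 3, and 16 and 24.1 CPM at day 7. For 10 glial markers, median sums were 3800 and 3842 CPM at day 3, and 4635 and 1018 CPM at day 7. Since the receptors below differ by cell type, these values stand beside every comparison of the sides in cells. Their part in the results was not tested. Cells below 10 CPM of both Pvalb and Ntrk3, a choice made after the data were seen, numbered 11 control and 22 SNT cells at day 3 and 7 and 4 cells at day 7. Among them the log2 ratio of SNT to control means was -0.57 and -0.17 for Oprm1 at day 3 and day 7, -2.63 and -3.20 for Oprd1, and -2.78 and -2.42 for Oprl1.

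The first comparison asks which receptor and precursor transcripts single neurons hold after injury and in which cells. In short, mean levels of Oprm1, Oprd1 and Oprl1 were lower on the SNT side at both days, with Oprm1 in male cells at day 7 as an exception, Penk was carried by few cells on either side, and Pdyn was close to the limit of detection. In day 3 cells 4 of the 6 members had a mean of at least 1 CPM over the side means. Of these, 2 (Oprd1 and Oprl1) were more than 2-fold lower on the SNT side, against 6.35% of 13644 genes, and 1 (Penk) was more than 2-fold higher, against 6.78%. In day 7 cells 4 members passed this filter, 3 of them (Oprd1, Oprk1 and Oprl1) were more than 2-fold lower, against 3.63% of 13264 genes, and 0 were more than 2-fold higher, against 5.99%. A ratio here is that of the side means, each with 1 CPM added, and has no test.

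Oprm1, the receptor of morphine and of endorphins, varied widely between cells of the same side. In the 18 control cells at day 3 the lowest, median and highest values were 0, 53.2 and 434 CPM, and in the 41 SNT cells 0, 4.41 and 598 CPM. At day 7 they were 0, 23.2 and 406 CPM in 14 control cells and 0, 0 and 426 CPM in 33 SNT cells. The ranges of the sides overlapped almost entirely, and the median was lower on the SNT side at both days. Oprm1 was carried by 14 of 18 control cells (77.8%, interval 52.4 to 93.6) and 15 of 41 SNT cells (36.6%, 22.1 to 53.1) at day 3. At day 7 it was carried by 7 of 14 control cells (50.0%, 23 to 77.0) and 11 of 33 SNT cells (33.3%, 18.0 to 51.8). The intervals of the sides overlap at both days, at day 3 only between 52.4 and 53.1%. The day 3 shares depend on the cut of 10 CPM: at 1 CPM they were 88.9% of control and 68.3% of SNT cells, and at 50 CPM 50.0% and 17.1%. Above 0 were 16 of 18 and 32 of 41 cells. Mean levels were 116 ± 139 (SD) and 62.5 ± 136 CPM at day 3, a log2 ratio of -0.88, and 123 ± 147 and 74.2 ± 121 CPM at day 7, a log2 ratio of -0.72. Both ratios lie within the 2-fold band, while the difference in mean log2(CPM + 1) over cells, -2.25 and -1.31, lies beyond it.

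The sexes differed in their Oprm1 values at day 7. Female cells had a mean of 139 CPM on the control side (n = 7) and 25.8 CPM on the SNT side (n = 16), a log2 ratio of -2.39. Male cells had 106 CPM (n = 7) and 120 CPM (n = 17), a log2 ratio of 0.17, so the direction of the mean turns between the sexes. The median and the share did not turn. Male medians were 46.4 and 18.2 CPM, and 4 of 7 and 9 of 17 male cells carried Oprm1. Female medians were 0 on both sides, and 3 of 7 and 2 of 16 female cells carried it. Calca was carried by 3 of 16 female and 10 of 17 male SNT cells, and by 4 of 7 control cells of each sex. Atf3 also differed, with means of 548 and 279 CPM and medians of 443 and 0 CPM in female and male SNT cells. The sexes are also different mice, so sex and animal cannot be told apart. The difference was not tested, nor was the part of these values in it.

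Cells that carried Oprm1 were cells with nociceptor markers. Of the cells with Oprm1, 13 of 14 and 15 of 15 carried Calca on the control and SNT sides at day 3, and 7 of 7 and 11 of 11 did at day 7. Pvalb was carried by 0 of 14, 1 of 15, 0 of 7 and 3 of 11 of them in the same order. Across the 106 kept cells, with log2(CPM + 1) centred within each side and day, the genes most like Oprm1 among 11573 compared were Calca (r = 0.90) and Scn10a (r = 0.87), a sodium channel of nociceptors. The cells share libraries of unequal depth and cell types, and r is a description.

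Within the SNT side, cells with high Oprm1 and cells with Atf3, the transcription factor induced by axotomy, were mostly separate. No day 3 SNT cell had Atf3 between 23 and 951 CPM, and no day 7 SNT cell between 13.9 and 704 CPM, so a level of 100 CPM parts the cells at both days. At day 3 Oprm1 was carried by 10 of 11 cells below that level, up to 598 CPM, and by 5 of 30 cells above it, up to 23.6 CPM. At day 7 it was carried by 10 of 21 cells below, up to 426 CPM, and by 1 of 12 above, at 18.2 CPM. Thus 0 of the SNT cells above the Atf3 level reached 50 CPM of Oprm1 at either day. Spearman's rho between the genes was -0.30 over 41 cells at day 3 and -0.69 over 33 cells at day 7. It was also negative in control cells, all below 100 CPM of Atf3, at -0.26 at day 3 and -0.49 at day 7. The cells of a side can share animals and differ in type, and the part of cell type in this pattern was not tested.

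**Figure D1:**
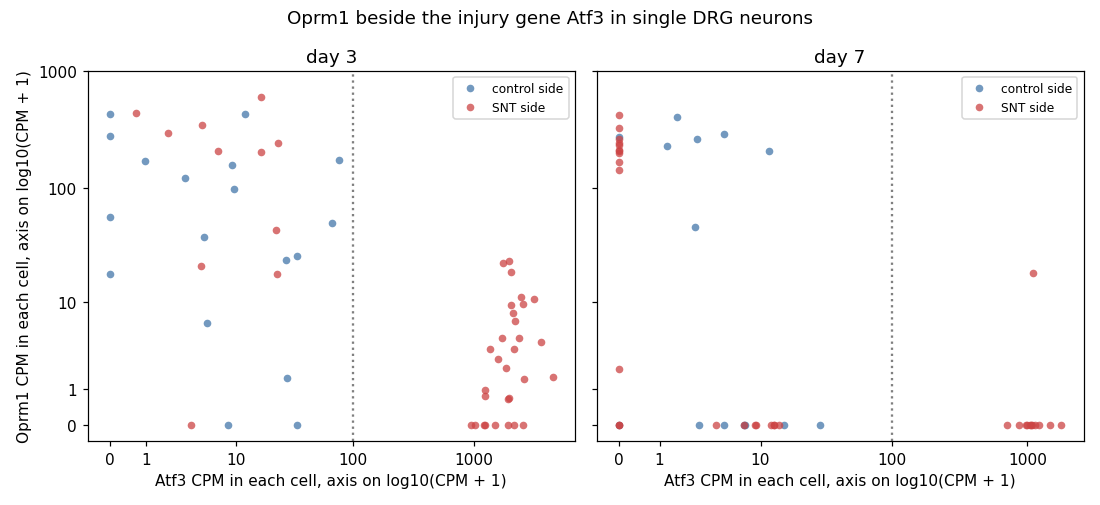
Oprm1 against Atf3 in single kept cells at day 3 and day 7, each axis in CPM on a log scale with 1 CPM added, with 1 point per cell, the control side in blue, the SNT side in red and a dotted line at 100 CPM of Atf3. SNT side cells above 100 CPM of Atf3 reach at most 23.6 CPM of Oprm1 at day 3 and 18.2 CPM at day 7.

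Annotation places exons of Ipcef1 over Oprm1 on the opposite strand. Smart-seq2 reads carry no strand, so reads of the overlap cannot be told apart by it. Ipcef1 was low: its mean in cells lay between 0.668 and 2.06 CPM over the 4 groups, and its r with Oprm1 over the 106 cells was 0.25.

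Oprd1, the main receptor of enkephalins, had low values in most cells. Its lowest, median and highest values at day 3 were 0, 3.98 and 34.5 CPM in control cells and 0, 0.179 and 6.75 CPM in SNT cells. At day 7 they were 0, 19 and 61.9 CPM in control cells and 0, 0 and 72.9 CPM in SNT cells. Every SNT cell at day 3 lay below 10 CPM, while at day 7 the highest SNT cell lay above every control cell. Oprd1 was carried by 6 of 18 control cells (33.3%, 13.3 to 59.0) and by 0 of 41 SNT cells at day 3, and a count of 0 allows a share of up to 7.3% at this cut. At 1 CPM the shares were 72.2% and 26.8%, and 13 of 18 and 21 of 41 cells had a value above 0. It was carried by 8 of 14 control cells (57.1%, 28.9 to 82.3) and 3 of 33 SNT cells (9.09%, 1.92 to 24.3) at day 7. These intervals do not overlap, but they cover counting error over cells and not spread between animals. How many genes at large part in this way was not counted. Mean levels were 8.16 ± 9.91 and 1.08 ± 1.85 CPM at day 3 (log2 ratio -2.14), and 24.2 ± 22.1 and 4.76 ± 15 CPM at day 7 (log2 ratio -2.13). Both sexes had lower SNT means at day 7, with log2 ratios of -2.10 in female and -2.16 in male cells. The 10 CPM pseudocount brings the day 3 ratio to -0.71, inside the 2-fold band, since the means lie near or below that pseudocount. Without the highest cell of each side the ratios were -1.97 and -2.62.

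Oprk1, the receptor of dynorphins, was carried by few cells. At day 3 only 2 control and 2 SNT cells had a value above 0, the highest 9.82 and 3.65 CPM, so 0 of 18 (up to 16.7%) and 0 of 41 (up to 7.3%) carried it. At day 7 the lowest, median and highest values were 0, 0 and 86.2 CPM in control cells and 0, 0 and 58.4 CPM in SNT cells. It was carried by 3 of 14 control cells (21.4%, 4.66 to 50.8) and 1 of 33 SNT cells (3.03%, 0.0767 to 15.8), and these intervals overlap. The means of 13.1 ± 27.8 and 1.85 ± 10.2 CPM gave a log2 ratio of -2.31 that rests on these 4 cells. Among female cells it was -0.31 and among male cells -4.28. Among the 7 control and 4 SNT cells without Pvalb and Ntrk3, a choice made after the data were seen, it turned to 0.13. The 3 control cells with Oprk1 all carried Oprl1, Spp1, Kit and Gfra2, and 0 of them carried Oprm1. Among all 14 control cells of that day Oprl1 was carried by 11, Kit by 10, Gfra2 by 8, Spp1 by 4 and Oprm1 by 7. Spp1, Kit and Gfra2 come from marker lists of different cell types, so they name no cell type here. The 1 SNT cell with Oprk1 carried Oprm1, at 201 CPM, and Kit, and it carried neither Oprl1 nor Spp1 nor Gfra2.

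Oprl1, the receptor of nociceptin, was carried by many cells of both sides. Its lowest, median and highest values at day 3 were 0, 11.1 and 283 CPM in control cells and 0, 2.20 and 99.8 CPM in SNT cells. At day 7 they were 0, 30.8 and 139 CPM in control cells and 0, 14 and 53.9 CPM in SNT cells. The sides overlapped at both days, and the single highest cell of each day was a control cell. At day 3 the next highest was the SNT cell at 99.8 CPM, above the second control cell at 84.6 CPM. Oprl1 was carried by 10 of 18 (55.6%, 30.8 to 78.5) and 16 of 41 cells (39%, 24.2 to 55.5) at day 3, and by 11 of 14 (78.6%, 49.2 to 95.3) and 21 of 33 cells (63.6%, 45.1 to 79.6) at day 7. The intervals overlap at both days. At day 3, 15 of 18 and 27 of 41 cells had a value above 0. Means were 37.7 ± 67.7 and 12.2 ± 18.9 CPM at day 3 (log2 ratio -1.55), and 40.1 ± 37.6 and 18.0 ± 16.2 CPM at day 7 (log2 ratio -1.11). Without the highest cell of each side the ratios were -1.14 and -0.90, the latter inside the 2-fold band. Female cells alone gave -0.56 at day 7 and male cells alone -1.58.

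The cells that carried Oprl1 differed in their markers between the sides. P2rx3, the ATP-gated channel of nonpeptidergic nociceptors, was carried by 10 of 10 control and 5 of 16 SNT cells with Oprl1 at day 3, and by 5 of 11 and 3 of 21 at day 7. Among all cells it was carried by 16 of 18 and 27 of 41 at day 3 and by 8 of 14 and 10 of 33 at day 7, so the sides also differed in cells at large. Pvalb was carried by 1 of 10 and 7 of 16 of them at day 3, and by 1 of 11 and 14 of 21 at day 7. Of all Pvalb cells on the SNT side, 7 of 9 at day 3 and 14 of 17 at day 7 carried Oprl1. The genes most like Oprl1 over the 106 cells were Mgst3 (r = 0.72), Ttc1 (r = 0.64) and Mtap (r = 0.62).

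Cells were also counted by how many of the 4 receptors they carried, without a test. At day 3, 0 of 18 control cells carried none of the 4 receptors, 9 carried 1, 6 carried 2 and 3 carried 3. Of 41 SNT cells 13 carried none (31.7%, 18.1 to 48.1), 25 carried 1, 3 carried 2 and 0 carried 3. At day 7, 4, 5 and 5 of 14 control cells carried 1, 2 and 3 receptors, while of 33 SNT cells 3 carried none, 24 carried 1, 6 carried 2 and 0 carried 3. The Clopper-Pearson intervals of the sides overlap for cells with 2 receptors at both days and for cells with 3 at day 3. For cells with 3 at day 7 they do not: control cells have 12.8 to 64.9% and SNT cells, which were sequenced less deeply, have 0 to 10.6%. Spread between animals is not covered by these intervals. Oprm1 and Oprd1 were carried together by 5 control cells at day 3, which is 5 of 14 with Oprm1 and 5 of 6 with Oprd1. At day 7 they were together in 7 control cells, which is 7 of 7 with Oprm1 and 7 of 8 with Oprd1, and in 3 SNT cells, 3 of 11 with Oprm1 and 3 of 3 with Oprd1. Oprm1 and Oprl1 shared 6 and 3 cells at day 3 and 5 and 2 cells at day 7 on the control and SNT sides, and their r over the 106 cells was -0.56. The r of Oprm1 and Oprd1 was 0.24, and that of Oprd1 and Oprl1 -0.06.

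**Figure D2:**
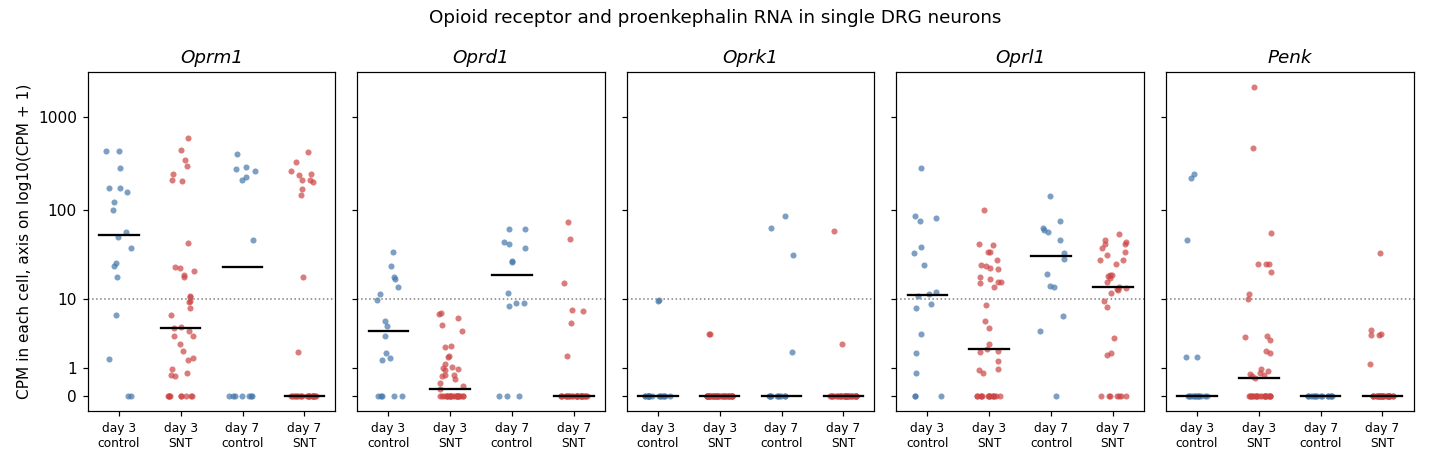
CPM of Oprm1, Oprd1, Oprk1, Oprl1 and Penk in every kept cell of the 4 groups of side and day, on a log scale with 1 CPM added, with 1 point per cell, a line at the median and a dotted line at 10 CPM. Median Oprm1 is 53.2 and 4.41 CPM in control and SNT cells at day 3, and 23.2 and 0 CPM at day 7.

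Penk, the precursor of met- and leu-enkephalin, was at 0 or a few CPM in most cells and high in very few. In control cells at day 3 the lowest, median and highest values were 0, 0 and 241 CPM, the second highest 219 CPM and the third 46.9 CPM. In SNT cells they were 0, 0.554 and 2106 CPM, with 467 and 56.3 CPM next. At day 7 all 14 control cells were at 0 (up to 21.4% of cells allowed), and the highest of 33 SNT cells had 33.6 CPM. Penk was carried by 3 of 18 control cells (16.7%, 3.58 to 41.4) and 9 of 41 SNT cells (22%, 10.6 to 37.6) at day 3, and the intervals overlap. Above 0 were 5 of 18 and 21 of 41 cells. Means were 28.4 ± 74.3 and 67.5 ± 334 CPM, a log2 ratio of 1.22 that rests on 1 SNT cell. Among cells without Pvalb and Ntrk3, the ratio was 4.24, with means of 4.55 and 104 CPM, and the control cells at 241 and 219 CPM lie outside this selection. The highest cell held 74.9% of the Penk counts of its side, and without the highest cell of each side the ratio was 0.06.

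The 9 SNT cells with Penk at day 3 all carried Atf3, Sprr1a, Calca and Gfra3, and 8 of 9 carried P2rx3 and Il31ra, the receptor of the itch cytokine interleukin-31. Most SNT cells of that day carried these genes: of all 41, 35 carried Atf3, 33 Sprr1a, 32 Calca, 25 Gfra3, 27 P2rx3 and 28 Il31ra. All 9 lay among the 30 cells above 100 CPM of Atf3, and the 11 cells below had at most 3.3 CPM of Penk. Of these 9 cells 0 carried Oprm1, while 1 of the 3 control cells with Penk did. Th, a marker of low-threshold C fibres, was carried by 4 of 41 SNT cells, 3 of them with Penk, and by 4 of 18 control cells, 2 of them with Penk. These counts hide unlike levels: Th reached 32.3 CPM in SNT cells and 4804 CPM in control cells, with means of 2.94 and 502 CPM. Of the other markers of this type, Slc17a8 was carried by 0 of 41 SNT and 2 of 18 control cells, and Fam19a4 by 16 and 8. The gene most like Penk over the 106 cells was Fxyd6 (r = 0.58), and Spearman's rho of Penk with Atf3 was 0.44 in day 3 SNT cells.

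Pdyn, the precursor of dynorphins, was near 0 throughout. Its summed counts were 2, 26, 11 and 9 in day 3 control, day 3 SNT, day 7 control and day 7 SNT cells, and its highest values 1.79, 11.7, 13.8 and 11.8 CPM. It was carried by 0 of 18, 1 of 41, 1 of 14 and 1 of 33 cells. No ratio is given at this depth.

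The second comparison asks what the same injury does in pooled neurons, where libraries can be tested with edgeR. Of the 6 members 5 passed the filter, 2 fell (Oprl1 and Penk, against 7.1% of 13510 genes tested) and 0 rose (against 8.84%) at an adjusted p below 0.05 and a change beyond 2-fold. In pooled libraries fewer cells of a type and less RNA per cell cannot be told apart.

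Oprl1 was at 45.4, 44.1 and 33.7 CPM in the control libraries and at 16.7, 23.5 and 4.49 CPM in the SNT libraries. Every SNT library lay below every control library, as for 21.3% of the genes tested, and SNT library 3 was the lowest. The means of 41.1 ± 6.39 and 14.9 ± 9.64 CPM (SD, 3 libraries each) gave a log2 change of -1.39 with a standard error of 0.38 and an adjusted p of 0.00562 (edgeR quasi-likelihood, Benjamini-Hochberg). Over 14 alternatives the adjusted p ranged from 0.000577 to 0.0712. The call was lost without SNT library 3, with a log2 change of -0.90 and an edgeR adjusted p of 0.0712. The lower level on the SNT side matches in direction the lower mean in cells at both days.

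Penk was at 17.9, 29.8 and 40.8 CPM in the control libraries, from 13, 25 and 23 counts, and at 0 in all 3 SNT libraries. The control libraries together held 28.6 CPM (Poisson interval 21.9 to 36.8), and a floor of 3 counts over the SNT libraries is 0.622 CPM. Penk was therefore at least 46.1-fold lower on the SNT side, or 35.2-fold from the lower limit of that interval, with an adjusted p of 1.31e-08 (edgeR, range 2.01e-15 to 6.46e-06 over 14 alternatives). Single cells of the same day did not show this fall: 9 of 41 SNT cells carried Penk and 1 reached 2106 CPM. The difference between pooled libraries and cells was not tested. Annotation places A830012C17Rik over Penk, and reads of the overlap cannot be told apart by strand.

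Markers of several cell types moved in the pooled libraries along with Penk and Oprl1. The 3 markers of low-threshold C fibres measured (Th, Slc17a8 and Fam19a4) all fell, their sum going from 389, 533 and 461 CPM in control to 65.8, 121 and 85.8 CPM in SNT libraries, with Th, the highest of them in CPM, at 361 and 67.7 CPM. Of 7 nonpeptidergic markers 6 fell, their sum going from 3545, 3426 and 3521 CPM to 654, 624 and 569.9 CPM, with Mrgprd, the highest in control libraries, at 1011 and 1.07 CPM and P2rx3, the highest in SNT libraries, at 782 and 298 CPM. Of 5 peptidergic markers 2 fell and 1 rose, with sums of 2118, 1667 and 1920.4 CPM and of 1117, 1016 and 1147 CPM. Of 5 pan-neuronal markers 0 fell and 1 rose, with sums of 7277, 8388 and 7751 CPM and of 13215, 13346 and 14909.6 CPM. The 1 that rose was Tubb3, the highest of them in CPM, from 3102 to 9157 CPM, while the log2 changes of Rbfox3, Snap25, Prph and Uchl1 were -0.81, -0.45, 0.09 and 0.64, inside the 2-fold band. Of 7 markers of large myelinated neurons 0 fell and 3 rose, with sums of 1363, 1604 and 1409 CPM and of 1649, 1633 and 1711 CPM. Of 10 glial markers 5 fell and 1 rose, with sums of 12402, 15106 and 14660.0 CPM and of 5886, 6659 and 6280 CPM, with Apoe the highest in CPM. Of 4 itch neuron markers 1 fell and 1 rose, with sums of 138, 124 and 158 CPM and of 100.4, 84.4 and 57.4 CPM, and Sst was at 0. The lists of immune, neutrophil, erythrocyte, and fibroblast and vessel markers each summed to at most 33.1 CPM in any library, and 1 immune and 1 vessel marker, at 0 in control libraries, rose. Their part in the changes of Oprl1 and Penk was not tested.

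Oprm1 was at 50.9, 41.7 and 37.3 CPM in the control libraries and at 43.6, 36.6 and 55.9 CPM in the SNT libraries, so the sides overlapped. The means of 43.3 ± 6.94 and 45.4 ± 9.78 CPM gave a log2 change of 0.24 with a standard error of 0.27 and an adjusted p of 0.576 (edgeR, range 0.399 to 0.945 over 14 alternatives), which does not pass. In cells of the same day the mean of Oprm1 was lower on the SNT side, and the difference between cells and pooled libraries was not tested.

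Oprd1 and Oprk1 were too sparse in the pooled libraries for a firm statement. Oprd1 had 0, 7 and 1 counts in control and 1, 1 and 2 counts in SNT libraries, that is 0, 8.34 and 1.77 CPM and 0.598, 0.870 and 0.998 CPM. Its log2 change of -1.83 did not pass (edgeR adjusted p 0.288, range 0.151 to 0.661 over 12 alternatives) and rests on control library 2. Oprk1 was at 1.38, 13.1 and 0 CPM in control and 5.38, 2.61 and 0.499 CPM in SNT libraries. Its log2 change of -0.76 did not pass (edgeR adjusted p 0.617, range 0.389 to 0.967 over 13 alternatives), and it turned to 1.87 without control library 2. Pdyn was at 0 in all 6 libraries.

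**Figure D3:**
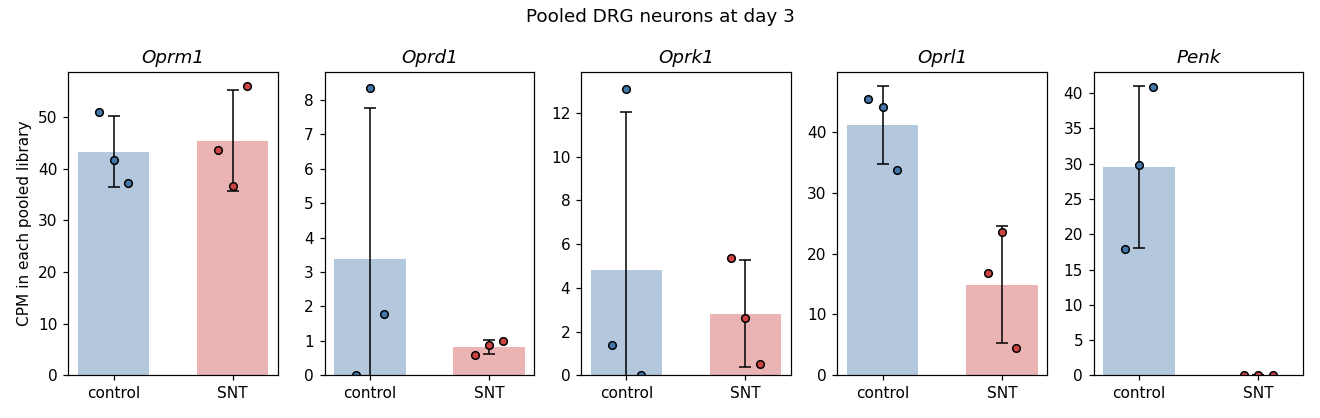
CPM of the 5 members with counts in the 3 control side and 3 SNT side pooled libraries, with 1 point per library, bars at the mean of each side and its SD. Penk is at 17.9 to 40.8 CPM in control and 0 in SNT libraries, and Oprl1 at 33.7 to 45.4 CPM and 4.49 to 23.5 CPM.

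Other genes of the opioid pathway were read from lists of 42 genes. In the pooled libraries 38 were tested, 6 fell (beside 7.1% of all genes tested) and 5 rose (beside 8.84%), and their median log2 change was 0.03 beside 0.02 over all genes tested, also with Rgs9 at its bound. In cells 37 passed the filter at each day. At day 3, 5 were more than 2-fold lower and 2 more than 2-fold higher on the SNT side, beside 6.35% and 6.78% of all genes. At day 7, 0 and 1 were, beside 3.63% and 5.99%.

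Among precursors, processing and breakdown, 1 gene rose and 1 fell. Pcsk1, the convertase that cleaves opioid precursors, rose from 24.3 ± 3.4 to 71.4 ± 3.56 CPM in pooled libraries (log2 change 1.70, edgeR adjusted p 3.30e-06), while the other 5 processing genes did not pass both limits. Mme, neprilysin, which degrades enkephalins, fell from 34.6 ± 5.36 to 3.2 ± 2.0 CPM (log2 change -3.14, edgeR adjusted p 1.37e-06), and 6 other peptidases tested did not pass. Pcsk1 had means of 30.6 and 49.5 CPM in control and SNT cells at day 3 (log2 ratio 0.68) and of 88.2 and 54.7 CPM at day 7 (log2 ratio -0.68), the opposite direction. Mme had means of 4.40 and 6.34 CPM in control and SNT cells at day 3 and of 20.04 and 9.60 CPM at day 7. Pomc, the precursor of beta-endorphin, was at 2.05 and 2.68 CPM in pooled libraries, and Pnoc, the precursor of nociceptin, had 0 counts in control and 1 count in SNT libraries.

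Of 5 inhibitory G protein alpha subunits 1 fell. Gnao1, the most common G protein subunit in neurons, fell from 848 ± 15.5 to 305 ± 9.02 CPM (log2 change -1.32, edgeR adjusted p 7.63e-11). In cells its mean was 871 and 402 CPM at day 3 (log2 ratio -1.11) and 328 and 292 CPM at day 7 (log2 ratio -0.16). The other 4 subunits did not pass both limits in the pooled libraries.

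Genes that end receptor signalling moved in both directions, with 3 of 10 lower and 3 higher in pooled libraries. The receptor kinases Adrbk1 (Grk2) and Adrbk2 (Grk3) fell from 195 to 69.4 CPM and from 20.1 to 2.36 CPM, with log2 changes of -1.35 and -2.76. Rgs4, which speeds the turnover of GTP by inhibitory subunits, fell from 2747 to 1089 CPM (log2 change -1.18). Grk6 rose from 23.2 to 48.3 CPM (log2 change 1.22), and Arrb1, which binds phosphorylated receptors, rose from 75.7 ± 30.004 to 268 ± 18.1 CPM (log2 change 1.96, edgeR adjusted p 1.92e-10). Rgs9 was at 0 in the control libraries and had 17 counts in the SNT libraries, at least 2.50-fold higher against a floor of 3 counts over the control libraries, or 1.46-fold from the lower Poisson limit of its SNT level, with an edgeR adjusted p of 0.0343 that ranged from 0.0267 to 0.0877 over 12 alternatives and was above 0.05 without any 1 of the control libraries, with DESeq2, with the replicate block and with thinned libraries. Its means in cells were 2.79 and 2.05 CPM at day 3 (log2 ratio -0.31), opposite in direction, and 4.05 and 5.46 CPM at day 7 (log2 ratio 0.36). Both ratios of Rgs9 lean on single cells. The highest control cell at day 3, at 26.4 CPM, held 67.3% of the counts of its side. The highest SNT cell at day 7, at 138 CPM, held 75.9%. In day 3 cells the means of Adrbk1 were 243 and 93.6 CPM (log2 ratio -1.37), and those of Adrbk2 24.99 and 3.68 CPM (log2 ratio -2.47). At day 7 the ratios were -0.31 and -0.61. The log2 ratios in cells at day 3 and day 7 were -0.28 and -0.76 for Rgs4, 0.64 and 0.33 for Grk6, and 0.68 and -0.07 for Arrb1, all inside the 2-fold band. Rgs20 had a higher mean on the SNT side at both days, 2.38 and 17 CPM (log2 ratio 2.41) and 1.26 and 6.27 CPM (log2 ratio 1.69). In the pooled libraries it did not pass (log2 change 1.09, edgeR adjusted p 0.223).

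Among 11 effectors, potassium and calcium channel and adenylyl cyclase genes, 1 fell and 1 rose of 9 tested. Adcy5 fell from 20.6 to 6.72 CPM (log2 change -1.51, edgeR adjusted p 0.0193, range 0.00891 to 0.114 over 14 alternatives). Adcy3 rose from 3.2 to 13.3 CPM (log2 change 2.16, edgeR adjusted p 0.00837, range 0.00563 to 0.0757 over 13 alternatives). The call of Adcy5 was lost without SNT library 1 (log2 change -1.19), control library 1 (-1.34) or control library 2 (-1.35), and with limma or DESeq2. That of Adcy3 was lost without SNT library 1 (1.90) and with thinned libraries. In day 3 cells Adcy5 was lower on the SNT side (48.4 and 17.9 CPM, log2 ratio -1.39) and Adcy3 higher (5.04 and 16.4 CPM, log2 ratio 1.53). Adcy1 was also lower in these cells (14.7 and 5.90 CPM, log2 ratio -1.19). Its pooled log2 change was 0.25 and did not pass. At day 7 the means were 14.1 and 14.2 CPM for Adcy5 (log2 ratio 0.01) and 23.8 and 29 CPM for Adcy3 (log2 ratio 0.27). Kcnj9, a subunit of inwardly rectifying potassium channels, was at 0 in all 6 pooled libraries. Of the other subunits listed, Kcnj3 had means of 15.2 and 13.4 CPM in control and SNT libraries (log2 change -0.02) and Kcnj6 of 2.05 and 1.02 CPM. Neither passed, and Kcnj5, at 0.989 and 0.199 CPM, was not tested.

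**Figure D4:**
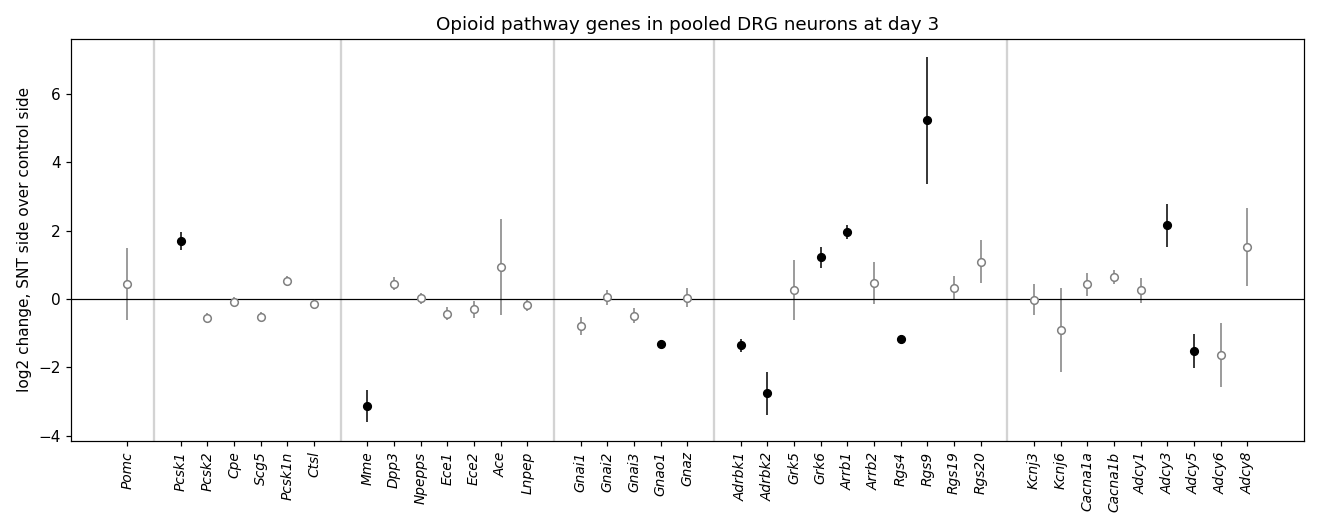
Log2 change, SNT over control side, of the pathway genes tested in the pooled libraries, grouped by list, with bars of 1 standard error and filled points for genes that passed both limits. Of 38 genes 6 fell and 5 rose, from Mme at -3.14 to Rgs9, which has 0 counts in control libraries and whose fitted value depends on the prior.

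The promoters of Oprd1 and Oprm1, receptors that shared control side cells and were carried by a smaller share of SNT side cells at both days, follow as sequence. This also holds for Oprl1, which shared control side cells with both, and its windows are not printed. RefSeq windows on GRCm38.p6, from 250 bases before to 50 bases after a gene's start, matched 4 of the 6 members in 9 windows. The members without a window were Oprk1 and Penk. The motifs CACGTG (E-box), TGACTCA (AP-1 element) and TGACGTCA (cAMP response element) were searched on both strands and occur in 7.2%, 5.20% and 1.79% of all 32851 windows. The Oprd1 window is chr4:132144437-132144736 on the minus strand, with 79.3% G and C, above 98.7% of windows. It holds CACGTG, in capitals, at base 165, which is 86 bases before the start, and neither of the other two motifs. The Oprm1 window is chr10:6788320-6788619 on the plus strand, with 52.0% G and C, and holds none of the 3, nor do the other windows of Oprm1 or those of Oprl1 and Pdyn. A match is a description of letters and not of binding.
Oprd1 promoter: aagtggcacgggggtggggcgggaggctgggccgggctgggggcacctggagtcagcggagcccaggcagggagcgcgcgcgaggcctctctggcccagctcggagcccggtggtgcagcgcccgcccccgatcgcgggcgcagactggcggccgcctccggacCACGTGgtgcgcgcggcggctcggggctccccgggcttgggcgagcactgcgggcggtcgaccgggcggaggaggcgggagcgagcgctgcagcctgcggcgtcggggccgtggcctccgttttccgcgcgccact
Oprm1 promoter: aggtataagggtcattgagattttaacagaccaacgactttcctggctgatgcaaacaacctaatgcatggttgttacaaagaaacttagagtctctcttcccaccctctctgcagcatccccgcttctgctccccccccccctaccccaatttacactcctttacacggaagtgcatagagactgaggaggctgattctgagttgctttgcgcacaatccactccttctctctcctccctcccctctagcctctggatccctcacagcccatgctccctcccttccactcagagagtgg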

How the data were processed

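The deposited tables were made by the authors by aligning reads to mm9 with Bowtie2, after base calling with CASAVA 1.8.2, and estimating expression with RSEM. The authors deposited expected counts, estimated reads per gene not scaled to a common total, although the tables are named otherwise. Values were rounded for count models. Cells were read from the deposited table without outliers, and 11 removed day 3 cells (4 control side and 7 SNT side) were used in an alternative only.

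Pooled libraries were tested with edgeR 4.0.16 (quasi-likelihood, TMM factors, mean of at least 1 CPM, two-sided, Benjamini-Hochberg over all 13510 genes) in R 4.3.3, with DESeq2 1.42.0 and limma 3.58.1 as alternatives. The fit was tested on simulated data with seed 1. Libraries with the same number were checked for pairing: residuals of same-number pairs had r of 0.08, -0.01 and -0.01, so no pairing was used. Within a side the spread between libraries was 2.59 to 4.20 times counting error (chi-square per degree of freedom). Cells were summarised in Python 3.11.15 with numpy 2.4.6, pandas 2.3.3 and scipy 1.17.1, without a test, and figures drawn with matplotlib 3.10.9. The genes named are the 6 members, genes of the pathway lists, markers of cell types, injury genes, genes annotated over a member, and for members carried by at least 10 cells genes among the 3 with the highest r, where r was at least 0.5. The members and lists were chosen with earlier results of these data known. Levels of members were not compared with each other. Sequences of proteins were left out, since no table of them was at hand.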

Additional observations from a re-analysis of the deposited data

How the results depend on the processing

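In the pooled libraries 66 of 67 alternative values of the members kept their direction or failed the test as before. Oprl1 was the exception: leaving out 1 library gave log2 changes from -1.82 to -0.90, with an edgeR adjusted p of 0.0712 (range 0.000577 to 0.0712) without SNT library 3. Leaving out 1 library gave 0.05 to 0.38 for Oprm1, -2.43 to -1.63 for Oprd1 (without control library 2 it fell under the filter and has no value), and -1.67 to 1.87 for Oprk1. Penk is at 0 in every SNT library, so its fitted log2 change depends on the prior and the method (-8.33 to -7.77 with 1 library left out, -7.01 with thinned libraries, -3.47 with limma) and is not a measured size, while its call was kept in all 14 alternatives. The number of changed genes was 2155, 2008 with a replicate block, 1883 to 2142 with 1 library left out and 1650 to 2244 over the other alternatives. Scaling by library size alone made 56.3% of the calls lower in place of 44.6%, and shifted the all-gene median (log2) from 0.02 to -0.14. In cells, ratios of the members that passed the filter kept their direction and their side of 2-fold in 28 of 32 alternatives at day 3 and 31 of 40 at day 7. At day 3, 4 crossed 2-fold (Oprm1 and Penk with means of logs, Oprd1 with the larger pseudocount, Penk without the highest cells). At day 7, 7 crossed it (of Oprm1, Oprk1 and Oprl1) and 2 turned direction (Oprm1 in male cells, at 0.17, and Oprk1). With a pseudocount of 10 CPM Oprd1 at day 3 was at -0.71. Cells without Pvalb and Ntrk3, an alternative chosen after seeing the data, gave 4.24 for Penk at day 3, 0.52 for Adcy1 at day 3 (-1.19 over all kept cells) and 0.13 for Oprk1 at day 7. For Penk the highest control cells lie outside this selection, and the part of cell type in these values was not tested. Oprk1 at day 7 was at -0.31 in female and -4.28 in male cells, and the cause was not tested. With a mean of at least 10 CPM fewer genes were read, and 974 in place of 1791 genes at day 3 and 589 in place of 1276 at day 7 were past 2-fold. Shares of cells stayed inside their intervals in 52 of 72 alternatives at day 3 and 56 of 72 at day 7. Of the pathway genes, whose alternatives were added after seeing the data, 165 of 178 pooled values of the genes past the limits in any comparison kept their call or lack of one, and 13 values, of Rgs9, Adcy3 and Adcy5, lost it.

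Depth limits what can be said of Oprd1, Oprk1 and Pdyn, which had few or 0 counts in pooled libraries. With 14 to 41 cells a group, a transcript carried by few cells can be missed. The animal of a cell is not labelled, and the pooled libraries are parts of 1 lysate per side. Spread between animals was therefore not measured. Within a day, only the day 7 values by sex are known to come from different mice.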

Other observations

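Of the 11 cells outside the table without outliers, 1 of 7 SNT side cells carried Oprm1, at 17 CPM, and 0 of the 4 control side cells carried any member. The highest values of the other members in these cells were 8.59 CPM for Oprd1, 2.42 CPM for Oprl1 and 4.30 CPM for Penk, with Oprk1 and Pdyn at 0.

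Among day 3 SNT side cells, Oprl1 was carried by 3 of 11 cells below and 13 of 30 cells above 100 CPM of Atf3, and at day 7 by 13 of 21 and 8 of 12. Its Spearman's rho with Atf3 was -0.01 over 41 cells and 0.14 over 33 cells.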
